A study of Mus musculus with 10 samples.

Results

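The genes described here encode core subunits of the Polycomb repressive complexes: Ezh2, Ezh1, Eed and Suz12 of PRC2, and Ring1, Bmi1, Pcgf1, Pcgf3, Pcgf5 and Pcgf6 of PRC1. They were chosen by name, as every non-control probe whose transcript maps to 1 of these 10 genes. The array held 19 such probes, all 19 were above background often enough to be kept, and the 10 genes are 10 of the 22008 genes tested. Bone marrow cells of 6-week-old donor mice had been transduced with retrovirus, and BCR-ABL+ colonies were picked after 10 days in methylcellulose without growth factors. BCR-ABL is an oncogenic tyrosine kinase made by a chromosome fusion in chronic myeloid and some acute lymphoblastic leukaemias. The cells were wild type (Cdk6+/+), lacked the cell cycle kinase CDK6 (Cdk6-/-), or carried Cdk6-K43M, a kinase-dead CDK6, and BCR-ABL and culture were common to all. There were 4 Cdk6-/- and 4 Cdk6-K43M samples, each labelled with Cy5 and hybridised alone on a 2-colour array, with Cy3-labelled RNA pooled from 4 wild-type samples as the partner. Dye-swap arrays of the pooled RNA of either genotype, 1 each, brought the number to 10. The labels do not say how many colonies, animals or cultures lie behind a sample, so p-values measure the spread between these samples, which may in part be technical.

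PRC2 places methyl groups on lysine 27 of histone H3, a mark of silenced genes. EZH2 is its usual catalytic subunit in dividing cells and EZH1 the alternative one in resting cells, while EED reads the mark and stimulates the enzyme and SUZ12 holds the complex together. PRC1 ubiquitinates histone H2A and compacts chromatin. Its catalytic core pairs RING1 or RNF2 with 1 PCGF protein, and the PCGF protein sets the kind of complex: BMI1 (PCGF4) belongs to canonical PRC1, and PCGF1, PCGF3, PCGF5 and PCGF6 to variant PRC1. In haematopoiesis BMI1 and EZH2 are known for restraining the INK4A-ARF locus (Cdkn2a) and for sustaining stem cells and B-lineage progenitors.

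All values are log2 ratios of mutant over wild-type pool from the brightest probe of a gene, with the swapped arrays turned to the same direction. Compared with the pool, a limma fit over all 22008 genes with Benjamini-Hochberg adjustment called 7.24% of genes in Cdk6-/- (3.39% higher, 3.85% lower) and 20.1% in Cdk6-K43M (9.79% higher, 10.3% lower) at an adjusted p under 0.05. Between the genotypes, on the 8 single-sample arrays, it called 0.513% (0.264% higher and 0.25% lower in Cdk6-K43M). With each array centred on its median in place of the intensity-dependent loess, the share of calls that were higher went from 46.8% to 63.5% in Cdk6-/-, from 48.7% to 87.9% in Cdk6-K43M and from 51.3% to 65.9% between the genotypes, and the median of all genes in Cdk6-K43M lay at 0.11. The wild-type pool was 1 control sample whose own spread was not measured. In the mutant channel 46.9% to 49.9% of probes were well above background and no spot was saturated. The Cdk6 probe was lower than the pool in Cdk6-/- (-0.41, adjusted p = 0.0368) and higher in Cdk6-K43M (0.35, adjusted p = 0.031), but it stayed near 0 in the 4th Cdk6-/- sample, and whether it lies in the deleted stretch was not known. Measured were 10 of 10 B-lineage, 11 of 12 granulocyte and monocyte, 4 of 6 T cell and 2 of 6 erythroid markers.

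In both mutants the PRC2 subunits moved in opposite directions: Ezh2 rose and Eed fell, while Suz12 and Ezh1 did not pass the test. In Cdk6-/- these were the only calls among the 10 genes, 1 higher and 1 lower, against the 3.39% and 3.85% of all genes given above. In Cdk6-K43M 3 genes of the 10 were higher (Ezh2, Pcgf3 and Pcgf6) and 2 lower (Eed and Bmi1), against 9.79% and 10.3%. With median centring the Cdk6-K43M calls were 5 higher (Ezh2, Ezh1, Pcgf1, Pcgf3 and Pcgf6) and 0 lower. Of all 22008 genes, 5594 were higher and 773 lower under that setting. The median change of the 10 genes was -0.05 in Cdk6-/- and 0.10 in Cdk6-K43M, where the median of all genes tested was 0.0014 and -0.01. Both comparisons share the wild-type pool, so their values are not independent of each other.

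**Figure D1:**
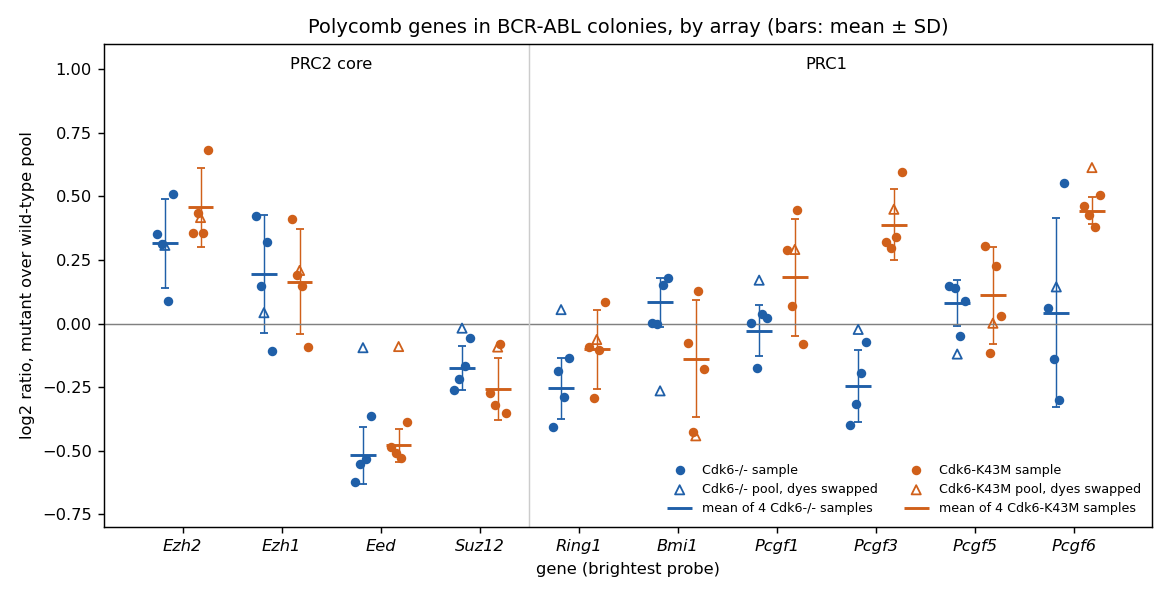
Log2 ratio of mutant over wild-type pool (vertical axis) for the 10 Polycomb genes (horizontal axis), with 4 single samples per genotype as filled points, the swapped pool as an open triangle, and a bar and whiskers at the mean and SD of the 4 samples. Ezh2 lies above 0 and Eed below 0 on every array, the swapped arrays of Eed lie nearest to 0, and for Pcgf3 the genotypes do not overlap.

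Ezh2, the catalytic subunit, had log2 ratios of 0.35, 0.31, 0.09 and 0.51 in Cdk6-/- samples 1 to 4 and 0.31 on the swapped pool. In Cdk6-K43M the ratios were 0.35, 0.43, 0.36 and 0.68, with 0.42 on the swapped pool. All 10 arrays were above 0, and the ranges of the genotypes overlap. The fitted change was 0.31 ± 0.08 (SE; 1.24-fold; adjusted p = 0.0397, limma) in Cdk6-/- and 0.44 ± 0.08 (1.36-fold; adjusted p = 0.00335) in Cdk6-K43M. Ezh2 was 0.14 higher in Cdk6-K43M than in Cdk6-/-, with a 95% interval from -0.11 to 0.40 (adjusted p = 0.6), so that 4 samples against 4 do not resolve a difference within it. The Cdk6-/- call was lost, at an unchanged direction, when Cdk6-/- sample 1, 2 or 4 or Cdk6-K43M sample 1 or 3 was left out (0.27 to 0.31, adjusted p up to 0.0976), and with the slide as a block (0.30, adjusted p = 0.11), median centring (0.34, adjusted p = 0.0569), the deposited table (adjusted p = 0.0504) or standard errors widened for the pool (adjusted p = 0.279). The Cdk6-K43M call held in each of these.

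Ezh2 was the gene with the most probes, 5 on 1 RefSeq transcript. In a limma fit over all 28177 kept probes, 4 of the 5 were higher in Cdk6-/-, with changes from 0.31 to 0.61, and the fifth, A_55_P2619322, was at 0.52 (adjusted p = 0.077). All 5 were higher in Cdk6-K43M, from 0.44 to 0.67, the lowest change being that of the brightest probe. The probe A_55_P2619337 shows how samples of a genotype can part: the 4 Cdk6-/- samples read 0.49, 0.47, 0.50 and 0.49, whereas the Cdk6-K43M samples read 0.27, 0.77, 0.29 and 0.96. Cdk6-K43M samples 2 and 4 were the higher ones on all 5 probes. Both lay on slide 2, sample 1 on slide 1 and sample 3 on slide 3, so sample and slide cannot be told apart here. Over the 8 single-sample arrays the pairwise Pearson r between these probes ran from 0.417 to 0.917, a description of arrays that share 1 pool. Every array gave a positive ratio at every Ezh2 probe.

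**Figure D2:**
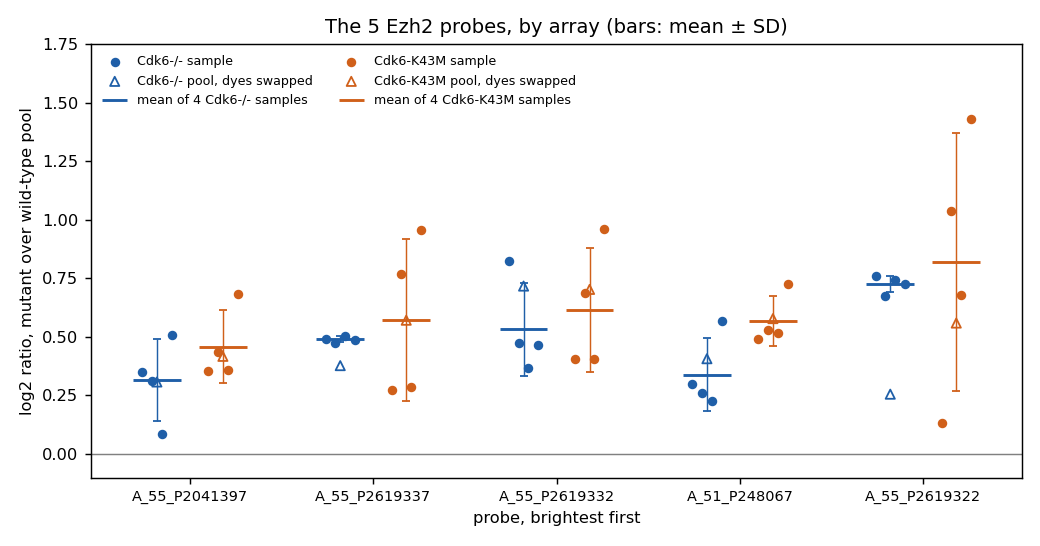
Log2 ratio of mutant over wild-type pool for the 5 Ezh2 probes, brightest first, with points, triangles and bars as in the plot of the 10 genes by array. All values lie above 0, from 0.09 in Cdk6-/- sample 3 on the brightest probe to 1.43 in Cdk6-K43M sample 4 on the dimmest.

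Ezh1, the alternative catalytic subunit, varied more between samples than between genotypes. Its ratios were 0.42, 0.15, 0.32 and -0.11 in Cdk6-/- and 0.41, 0.19, 0.15 and -0.09 in Cdk6-K43M, with 0.04 and 0.21 on the swapped pools. Sample 4 was the only one below 0 in either genotype. The fitted changes of 0.15 ± 0.10 (adjusted p = 0.372) and 0.16 ± 0.10 (adjusted p = 0.293) did not pass the test, and with median centring Ezh1 was called in Cdk6-K43M (0.36, adjusted p = 0.025). Within each array the Ezh1 ratio minus the Ezh2 ratio averaged -0.12 ± 0.37 (SD, n = 4) in Cdk6-/- and -0.29 ± 0.35 (SD, n = 4) in Cdk6-K43M. The difference of -0.17 gave p = 0.457 in a 2-sided exact permutation test, in which 4 samples against 4 can give no p below 0.0286. That test did not pair same-numbered samples.

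Eed, the subunit that binds the methyl mark, had ratios of -0.62, -0.55, -0.53 and -0.36 in Cdk6-/- and of -0.49, -0.51, -0.53 and -0.39 in Cdk6-K43M. On the swapped pools it read -0.095 and -0.091, so that all 10 arrays were below 0 but the swapped ones far less so. The fit assigned a dye effect of -0.20 to this probe (adjusted p = 0.0166). The fitted changes were -0.31 ± 0.05 (1.24-fold lower; adjusted p = 0.0104) in Cdk6-/- and -0.28 ± 0.05 (1.21-fold lower; adjusted p = 0.00531) in Cdk6-K43M. Without the swapped arrays and the dye term they were -0.52 and -0.48, and both stayed called. With median centring neither was called, at -0.27 (adjusted p = 0.054) in Cdk6-/- and -0.03 (adjusted p = 0.819) in Cdk6-K43M, or -0.14 relative to the median of all genes there, and with widened standard errors the adjusted p was 0.126 and 0.0559. Eed had a single probe.

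Suz12, the scaffold, was below 0 on all 10 arrays at its brighter probe. The ratios were -0.26, -0.22, -0.17 and -0.06 in Cdk6-/- with -0.02 on the swapped pool, and -0.27, -0.32, -0.08 and -0.35 in Cdk6-K43M with -0.09. The fitted values were -0.10 ± 0.06 (adjusted p = 0.32) and -0.18 ± 0.06 (adjusted p = 0.0537), and neither passed. The second probe, A_52_P302203, was called in Cdk6-K43M in the fit over probes (-0.24 ± 0.07, adjusted p = 0.0386) and not in Cdk6-/- (-0.23 ± 0.07, adjusted p = 0.0794). At the gene level Suz12 in Cdk6-K43M was called lower under 4 of 9 alternatives (-0.26 without the swapped arrays, adjusted p = 0.0146), and with median centring it was at 0.03 (adjusted p = 0.826).

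The promoters of the 3 obligate PRC2 genes are shown because Ezh2 rose where Eed fell and Suz12 lay below 0, and because CDK6 acts on the RB and E2F pathway, whose factors are known to bind at Ezh2 and Eed. RefSeq promoters (GRCm38.p6, 250 bases before to 50 after a start) were matched for 9 of the 10 genes by symbol, and the search was chosen with the values known. Capitals mark, on either strand, the E2F-type words TTTCCCGC, TTTCGCGC, TTTGCCGC and TTTGGCGC and the word CCAAT, which is bound by NF-Y. These words do not overlap each other where they were found. The sequences run 5′ to 3′ on the strand of the gene.
Ezh2 (chr6:47595001-47595180, minus strand, bases -150 to 30): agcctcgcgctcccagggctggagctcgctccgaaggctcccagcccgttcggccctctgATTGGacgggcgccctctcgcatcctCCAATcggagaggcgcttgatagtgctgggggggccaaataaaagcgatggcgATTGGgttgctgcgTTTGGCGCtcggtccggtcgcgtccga
Suz12 (chr11:79992856-79993105, plus strand, bases -250 to -1): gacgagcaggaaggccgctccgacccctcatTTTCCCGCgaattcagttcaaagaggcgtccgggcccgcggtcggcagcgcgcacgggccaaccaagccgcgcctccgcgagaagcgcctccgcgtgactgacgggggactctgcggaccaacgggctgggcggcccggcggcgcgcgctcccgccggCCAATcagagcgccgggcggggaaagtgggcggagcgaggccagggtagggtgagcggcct
Eed (chr7:89980977-89981126, minus strand, bases -150 to -1): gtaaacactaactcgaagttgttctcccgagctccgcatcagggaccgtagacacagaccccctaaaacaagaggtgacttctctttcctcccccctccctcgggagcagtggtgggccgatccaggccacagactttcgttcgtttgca

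In these windows the Ezh2 promoter held the word TTTGGCGC at bases 4 to 11 after the start and CCAAT, in either orientation, at -90 to -86, -64 to -60 and -11 to -7. Suz12 held TTTCCCGC at -219 to -212 and CCAAT at -61 to -57. The Eed stretch printed held neither, and a CCAAT lay at bases 26 to 30 after its start. Of 32851 promoters of the same length, 2.26% held an E2F-type word, 37.4% held CCAAT and 3.37% held it 3 times or more. Among the members, Ezh2 and Suz12 held an E2F-type word, and Ezh2, Eed, Suz12 and Pcgf5 held CCAAT. A match is a description of the letters, and a missing match says only that they are not in this window. Binding at these words, and any part of it in the values, was not tested.

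Among the PRC1 genes, no change passed the test in Cdk6-/- with all 10 arrays fitted. Without the swapped arrays and the dye term, Ring1 (-0.255, adjusted p = 0.0421) and Pcgf3 (-0.245, adjusted p = 0.0497) were called lower. Under that setting 1817 of all 22008 genes were lower. The count of the 6 at an unadjusted p under 0.05 was 1. In Cdk6-K43M Pcgf3 and Pcgf6 rose and Bmi1 fell. Pcgf3 was the only one of the 10 genes that passed the test between the genotypes.

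Pcgf3, which with PCGF5 builds the variant PRC1 of the inactive X chromosome, lay on opposite sides of the pool in the mutants. Its ratios were -0.40, -0.32, -0.19 and -0.07 in Cdk6-/- and 0.32, 0.30, 0.34 and 0.60 in Cdk6-K43M. The swapped pools read -0.02 and 0.45. All 5 Cdk6-/- arrays were below 0 and all 5 Cdk6-K43M arrays above it, with no overlap. Against the pool the change was 0.44 ± 0.07 (1.36-fold; adjusted p = 0.00214) in Cdk6-K43M and -0.16 ± 0.07 (adjusted p = 0.19) in Cdk6-/-. Between the genotypes Pcgf3 was 0.635 ± 0.10 higher in Cdk6-K43M (1.55-fold, 95% interval 0.41 to 0.86, adjusted p = 0.0391). It stood 83rd by p-value among the 22008 genes, of which 0.513% were called. Within slides 1, 2 and 3 the difference was 0.72, 0.58 and 0.66, from 1, 2 and 1 samples per genotype.

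The call between the genotypes was lost whichever of the 8 samples was left out (0.57 to 0.69, adjusted p from 0.0527 to 0.133), with Agilent's processed signals (0.77, adjusted p = 0.0702), and with the slide as a block (adjusted p = 0.0976), and it held with median centring (0.74, adjusted p = 0.0148). The second Pcgf3 probe, A_52_P373846, gave 0.12 ± 0.09 (adjusted p = 0.584), and the mean of both gave 0.38 (adjusted p = 0.108). That probe was dim, well above background on 3 of the 4 Cdk6-/- arrays and in 6 of the 10 wild-type channels. Its ratios of -0.20, 0.16, 0.01 and 0.07 in Cdk6-/- overlapped those of 0.24, 0.16, 0.07 and 0.06 in Cdk6-K43M. Pcgf3 lies on chromosome 5, as does Cdk6, with 360 tested genes between them. Of the 10 tested genes nearest to Pcgf3, a set chosen after the value was seen, none was called between the genotypes in this fit (lowest adjusted p = 0.125), and their differences ran from -0.28 to 0.43.

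Pcgf6, the subunit of the E2F6 and MGA-containing variant complex, was spread widely in Cdk6-/- at 0.06, -0.14, -0.30 and 0.55, with 0.14 on the swapped pool. In Cdk6-K43M the samples lay close together at 0.46, 0.43, 0.38 and 0.51, with 0.61 on the swapped pool. The SD was 0.37 in Cdk6-/- and 0.054 in Cdk6-K43M (n = 4 each). Pcgf6 rose in Cdk6-K43M by 0.52 ± 0.11 (1.43-fold; adjusted p = 0.01), and the second probe, A_51_P297771, rose by 0.25 ± 0.08 (adjusted p = 0.0428 in the fit over probes). The gene-level call held under 8 of 9 alternatives and was lost with standard errors widened for the pool (adjusted p = 0.0865). In Cdk6-/- the change was 0.10 ± 0.11 (adjusted p = 0.606), and it turned to -0.0046 without sample 4. The difference between the genotypes, 0.40 with a 95% interval from 0.03 to 0.77, did not pass the test (adjusted p = 0.326). Cdk6-/- sample 4 lay above all 4 Cdk6-K43M samples.

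Bmi1, the PCGF protein of canonical PRC1, had ratios of 0.0032, -0.0031, 0.15 and 0.18 in Cdk6-/- and of -0.08, -0.43, 0.13 and -0.18 in Cdk6-K43M. The swapped pools were among the lowest values, at -0.27 and -0.44. Bmi1 fell by 0.30 ± 0.08 in Cdk6-K43M (1.23-fold lower; adjusted p = 0.0261), with 4 of 5 arrays below 0. The call was lost without the swapped arrays, where the value was -0.14 (adjusted p = 0.268). The second probe, A_51_P121547, gave -0.13 ± 0.06 (adjusted p = 0.159), median centring -0.10 (adjusted p = 0.504) and the slide as a block -0.30 (adjusted p = 0.0534). In Cdk6-/- the value was -0.08 ± 0.08 (adjusted p = 0.551), and the difference between the genotypes was -0.22 (95% interval -0.49 to 0.05, adjusted p = 0.431).

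**Figure D3:**
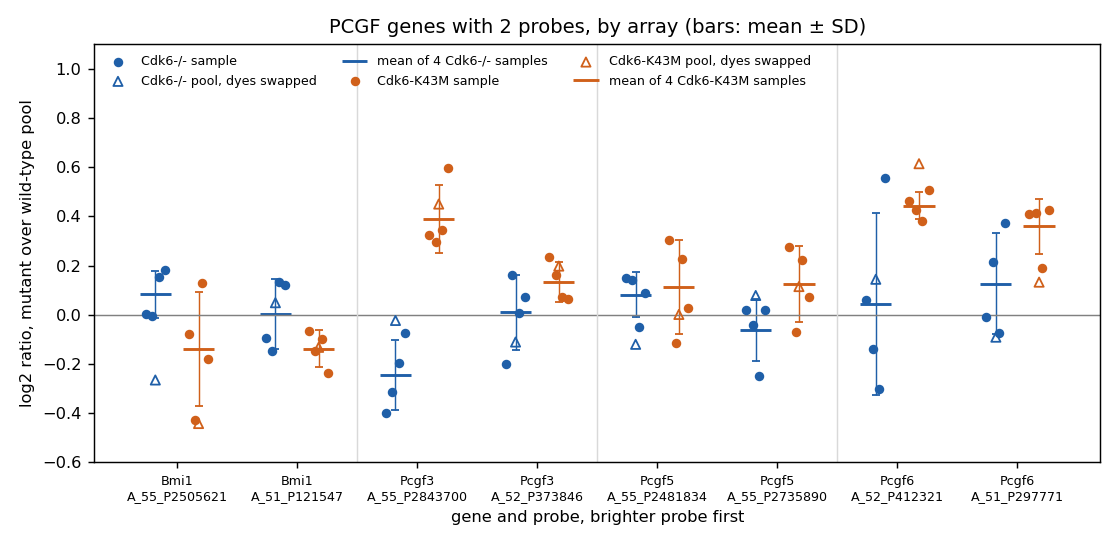
Log2 ratio of mutant over wild-type pool for the 4 PCGF genes with 2 kept probes each, brighter probe first, with points, triangles and bars as in the plot of the 10 genes by array. The genotypes are apart at the brighter Pcgf3 probe and overlap at the dimmer one, and Pcgf6 is above 0 at both probes in all Cdk6-K43M arrays.

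Pcgf1, the PCGF protein of the KDM2B and BCOR complex that binds CpG islands, was at 0.0028, -0.18, 0.04 and 0.02 in Cdk6-/- and at 0.29, 0.07, 0.45 and -0.08 in Cdk6-K43M. The swapped pools read 0.17 and 0.29. The fitted change in Cdk6-K43M was 0.25 ± 0.08 (adjusted p = 0.0534) and that in Cdk6-/- 0.06 ± 0.08 (adjusted p = 0.702), so neither passed, and with median centring Pcgf1 was called in Cdk6-K43M (0.39, adjusted p = 0.0119). Ring1, a ubiquitin ligase of PRC1, was at -0.41, -0.19, -0.29 and -0.14 in Cdk6-/- and at -0.09, -0.29, -0.10 and 0.09 in Cdk6-K43M, with 0.05 and -0.06 on the swapped pools. Its changes were -0.14 ± 0.07 (adjusted p = 0.253) and -0.04 ± 0.07 (adjusted p = 0.741). Pcgf5 ranged from -0.12 to 0.31 over all arrays, and its changes of -0.0058 and 0.04 did not pass at either of its probes.

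The other Polycomb genes are given from lists of complex partners, with medians beside 0.0014 and -0.01 over all genes. Their counts with median centring in Cdk6-K43M stand beside 5594 genes higher and 773 lower of all 22008. Of 8 PRC2 accessory genes 1 rose and 1 fell in Cdk6-/- (median -0.19), and 1 rose and 3 fell in Cdk6-K43M (median -0.22). Mtf2, a Polycomb-like protein that guides PRC2 to CpG islands, rose in both, by 0.24 ± 0.06 (adjusted p = 0.0453) in Cdk6-/- and 0.60 ± 0.06 (adjusted p = 0.000266) in Cdk6-K43M. The other call in Cdk6-/- was that of Rbbp7, a histone chaperone, which fell by 0.26 ± 0.07 (adjusted p = 0.0461). In Cdk6-K43M Jarid2, which recruits PRC2, fell by 0.40 ± 0.08, Epop by 0.75 ± 0.16 and Rbbp4 by 0.47 ± 0.10. The Jarid2 and Rbbp4 calls were lost with median centring (-0.23 and -0.15), the Mtf2 and Rbbp7 calls in Cdk6-/- under 4 and 6 of 8 alternatives, and those of Mtf2 and Epop in Cdk6-K43M under none of the 8, while the widened standard errors, counted apart, ended that of Epop (adjusted p = 0.0838). With median centring 2 of the list were higher and 1 lower in Cdk6-K43M.

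Of 11 canonical PRC1 genes, Cbx2, a chromodomain protein that reads the PRC2 mark, fell by 0.47 ± 0.10 (adjusted p = 0.023) in Cdk6-/- (list median 0.02). That call was lost with standard errors widened for the pool (adjusted p = 0.209). In Cdk6-K43M the single call was Rnf2, the second ubiquitin ligase of PRC1, which fell by 0.30 ± 0.09 (adjusted p = 0.0429; median 0.0074), and this call was lost under 4 of 8 alternatives. With median centring 3 of these genes were higher and 0 lower in Cdk6-K43M (median 0.18). The difference between the genotypes of Cbx2 (0.72 ± 0.14, adjusted p = 0.0931) did not pass, and with median centring it did (0.85, adjusted p = 0.0447). Of 11 variant PRC1 genes measured, 1 was higher in Cdk6-/- (median -0.01), and 3 were higher and 1 lower in Cdk6-K43M (median 0.11). With median centring 8 were higher and 0 lower in Cdk6-K43M (median 0.34). E2f6, a repressive E2F that pairs with PCGF6, rose by 0.45 ± 0.08 (adjusted p = 0.0145) and 0.51 ± 0.08 (adjusted p = 0.00282), and both calls held under all 8 alternatives. With the widened standard errors the Cdk6-/- call was lost (adjusted p = 0.157) and the Cdk6-K43M call held (adjusted p = 0.0351). In Cdk6-K43M Bcorl1 rose by 0.45 ± 0.07 and Wdr5 by 0.31 ± 0.09, while Bcor, the PCGF1 partner and paralogue of Bcorl1, fell by 0.44 ± 0.08. The Bcor call was lost with median centring (-0.25, adjusted p = 0.0721) and with the mean of kept probes (adjusted p = 0.0544), which also ended that of Wdr5 (0.18, adjusted p = 0.117).

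PR-DUB removes the ubiquitin that PRC1 places. Of its 8 genes none was called in Cdk6-/- by limma (3 at an unadjusted p under 0.05; median 0.04). In Cdk6-K43M Foxk2 rose by 0.63 ± 0.08 (adjusted p = 0.000799) and Foxk1 by 0.24 ± 0.06 (adjusted p = 0.0205), with a list median of -0.04, or 0.16 with median centring. The widened standard errors ended the Foxk1 call (adjusted p = 0.138) and not that of Foxk2 (adjusted p = 0.0134). Of 7 demethylase and Trithorax genes, which oppose Polycomb, Men1 rose in both mutants, by 0.26 ± 0.05 (adjusted p = 0.0202) and 0.58 ± 0.05 (adjusted p = 0.000139). The Men1 call in Cdk6-/- was lost with median centring (adjusted p = 0.058) and without the swapped arrays (0.14, adjusted p = 0.0911). It was also lost with the widened standard errors (adjusted p = 0.193). In Cdk6-K43M the H3K27 demethylase Kdm6b rose by 0.30 ± 0.09 and its paralogue Kdm6a fell by 0.37 ± 0.08, and the list medians were 0.02 and 0.05. The Kdm6b call was lost under 4 of 8 alternatives and the Kdm6a call with median centring (-0.25, adjusted p = 0.0648), where 4 of the list were higher and 0 lower. Between the genotypes none of the 45 genes in these 5 lists was called by limma, while 12 had an unadjusted p under 0.05. Fitted on all 10 arrays, 5 of the 45 were higher and 2 lower in Cdk6-K43M, beside 284 and 275 of all genes. With median centring Cbx2 was called.

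Genes known to be silenced by Polycomb were measured at 11 of 15. In Cdk6-/- 2 fell and none rose, 9 of 11 lay below 0 and the median was -0.57. Without the filter on dim probes all 15 were tested, 10 of 15 lay below 0 and the median was -0.16. Irf4, a B-lineage transcription factor, fell by 0.91 ± 0.16 (adjusted p = 0.0128, or 0.0547 with the slide as a block), and Cdkn1a, the p21 inhibitor and also a p53 target, by 0.80 ± 0.14 (adjusted p = 0.0119). Cdkn1c (-1.24 ± 0.34, adjusted p = 0.0558) and Cdkn2a (-0.66 ± 0.21, adjusted p = 0.0842) did not pass. In Cdk6-K43M 7 of 11 lay below 0, the median was -0.17 and Irf4 was the only call (-1.07 ± 0.16, adjusted p = 0.00178). With median centring 5 of 11 lay below 0 there, 1 was higher and 1 lower, and the median was 0.01. None was called between the genotypes by limma, where 2 had an unadjusted p under 0.05, Cdkn1c (1.67 ± 0.50, adjusted p = 0.209) and Cdkn1a (0.62 ± 0.20, adjusted p = 0.244).

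**Figure D4:**
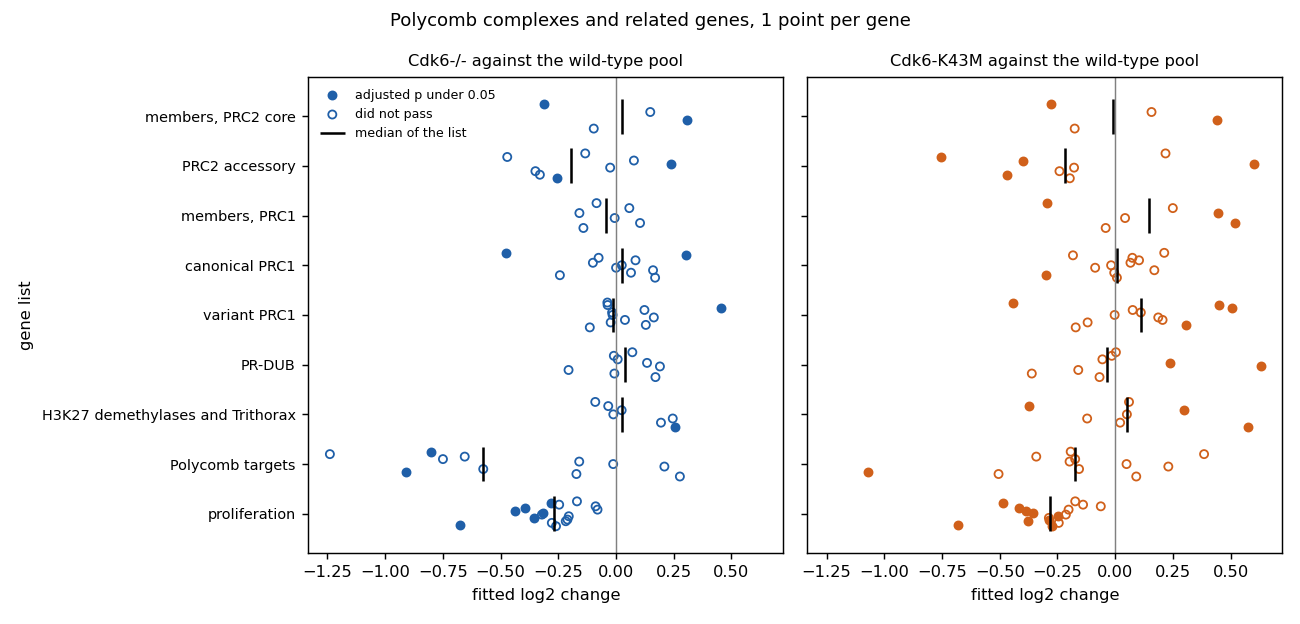
Fitted log2 change against the wild-type pool (horizontal axis) in Cdk6-/- (left) and Cdk6-K43M (right) for the genes of each list (rows), with filled points for an adjusted p under 0.05 and a vertical bar at the list's median. Calls in both directions occur among the Polycomb genes, while all 16 proliferation genes lie below 0 in both panels, a side that 9 of them leave with median centring in Cdk6-K43M.

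Beside these changes the proliferation genes, whose products are known to rise in cycling cells as Ezh2 does, lay below the pool. Of 16, 6 fell in Cdk6-/- (median -0.27) and 9 in Cdk6-K43M (median -0.28), and all 16 were below 0 in both. Rrm2 fell by 0.68 ± 0.09 in both (adjusted p = 0.0033 and 0.000941). With median centring 2 fell in Cdk6-/- and 1, Rrm2, in Cdk6-K43M, where 7 of 16 were then below 0 and the median was 0.0039. Ezh2 rose while these genes fell or did not pass, and their part in the Polycomb values was not tested. Of 11 granulocyte and monocyte genes measured of 12, 5 fell in each mutant, with S100a9 at -4.16 and -3.94. Their mean ratio ran from -1.42 to -1.03 over the Cdk6-/- samples and from -1.20 to 0.05 over the Cdk6-K43M samples. With probes well above background on all arrays, 6 of these genes were tested and 0 called in either mutant (medians -0.94 and 0.08). That setting leaves out genes dim in the mutant channel. The 5 called genes were not among the 6, so it did not test their fall. Of the 10 B-lineage genes 1 rose in Cdk6-/- (Igll1, 0.38) and 2 rose and 2 fell in Cdk6-K43M (among them Ebf1, 0.40, and Cd79b, -0.51, the latter at -0.18 with adjusted p = 0.156 under median centring, where 4 of the list were higher and 0 lower). Their mean ratios ran from 0.03 to 0.35 in Cdk6-/- and from -0.02 to 0.16 in Cdk6-K43M. Thy1 rose (2.14 and 2.79) and Cd2 fell (-1.19 and -1.32) among 4 T cell genes, whose mean ratios ran from -0.27 to 0.43 and from 0.03 to 0.62, and neither of 2 erythroid genes was called, with mean ratios from -0.12 to 0.07 and from -0.07 to 0.08. In RNA of whole colonies, fewer cells of a type and less RNA per cell cannot be told apart, and the part of these cell types in the Polycomb values was not tested.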

How the data were processed

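RNA of BCR-ABL+ colonies was measured on 10 2-colour Agilent arrays. Per the file headers, Feature Extraction 11.5.1.1 read the spot intensity values, which give no reads or depth, so the number of arrays limits the precision. A table of log2 values was deposited by the authors and served as an alternative, with 68 cells that read as text set to missing. Its background correction is not stated in the headers or labels.

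Median spot intensities were corrected by normexp (offset 50) and loess-normalized within arrays with limma 3.58.1 in R 4.3.3 (data.table (1.17.8) for reading). Non-uniform spots (195 values) and control spots were left out. Probes were named by transcript through RefSeq annotation of GRCm38.p6 (58.3% of 56605 probes matched). A probe was kept if well above background on at least 3 of 4 arrays of a genotype or in 5 of 10 wild-type channels, which left 28177. The brightest stood for its gene. Ratios against the pool were fitted on all 10 arrays with a dye term, and the genotypes were compared on the 8 single-sample arrays. The swapped arrays hold RNA of the same samples, so the residual spread of the first fit may be too small. Changes were called at an adjusted p under 0.05 over 22008 genes. Tested on simulated data, 1.5-fold changes were recovered in 88.1% of genes for Cdk6-/- against the pool and 49.3% between the genotypes. The simulated noise was independent between arrays, had the residual spread of the first fit and gave the pool no error of its own. These shares may therefore be too high.

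The members, the lists of partners, targets, proliferation genes and cell types, and the tests were chosen with earlier results of these data known. Named were all members, up to 3 genes of a list with the smallest p in a comparison (2 of marker and proliferation lists), the 5 genes most like Ezh2 and Bmi1, and Cdk6; genes named beyond this complete a short count and were chosen after their values were seen. Of the lists, Auts2 and Kmt2a had no matched probe, and 11 genes were too dim to be tested. A gene of the canonical PRC1 list that the rule names is not reported here. The labels give replicate numbers and do not say whether these pair samples of the genotypes. Same-numbered samples deviated together weakly or not at all (r from -0.066 to 0.228). They were not treated as paired, and the replicate block was an alternative.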

Additional observations from a re-analysis of the deposited data

Results flagged for a closer look

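The lowest Pcgf1 ratio in Cdk6-/-, -0.177 in sample 2, stood apart from the other 3 samples, its gap to the nearest being 0.834 of the group's range, above Dixon's critical value. In the same way the highest Pcgf3 ratio in Cdk6-K43M, 0.596 in sample 4, had a gap of 0.847 of the range. Of 20 groups of 4 samples looked at, these 2 were set apart, and chance sets apart about 1 in 20. Pcgf3 differed between the mutants by 0.635, tested as the difference itself in limma (adjusted p = 0.0391), with the Cdk6-/- arrays below the pool and the Cdk6-K43M arrays above it. Without Cdk6-K43M sample 4 the difference was 0.57 (adjusted p = 0.0776).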

How the results depend on the processing

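Leaving out 1 sample at a time gave 612 to 1931 genes and 1 to 2 of the 10 members in Cdk6-/- against the pool, 3592 to 4505 genes and 5 to 6 members in Cdk6-K43M, and 36 to 77 genes and 0 members between the genotypes. In Cdk6-/- the counts were 802 genes and 0 members with median centring, 638 and 1 with the slide as a block, and 3292 and 4 without the swapped arrays. They were 130 and 0 with standard errors widened for the pool, and the deposited table gave 1 member. That widening treats the pool as a mean of 4 samples with the residual spread of the fit. In Cdk6-K43M median centring called 5 members higher and 0 lower, beside 5594 genes higher and 773 lower. The widened errors left 1270 genes and 2 members, Ezh2 and Pcgf3, in Cdk6-K43M. Of the 45 genes in the 5 lists of partners they left 0 in Cdk6-/- and 5, all higher, in Cdk6-K43M. Of the 16 proliferation genes they left 0 and 3, and of the 11 Polycomb targets 0 and 1. Between the genotypes 73 genes were called with Agilent's processed signals, 33 with the slide as a block and 559 on all 10 arrays. No member was called with the processed signals, the slide as a block, the mean of kept probes or the replicate block. At an unadjusted p under 0.05 in limma these settings held 1, 1, 2 and 2 members. With the main settings Pcgf6 (unadjusted p = 0.0386, limma) had rank 2609 between the genotypes among all genes tested. Counts of all genes at that cut are not given for these alternatives. The replicate block gave 37 genes and 0 members, with Pcgf3 at 0.635 (adjusted p = 0.0625). Whether equal numbers pair the samples is not known, and 2 of 4 best matched their own number. The causes were not tested.

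Values near 0 changed sign. Between the genotypes Ezh1 turned to 0.0304 (processed signals), 0.114 (median centring) and 0.00893 (all 10 arrays), and Suz12 to 0.0611 (median centring). In Cdk6-/- Pcgf5 turned to 0.0209 (median centring), 0.00395 (slide block) and 0.0813 (without swapped arrays), and without these arrays Bmi1 was at 0.083 and Pcgf1 at -0.0287. In Cdk6-K43M median centring gave Suz12 0.0306 and Ring1 0.0344. Leaving out 1 sample moved Ezh1 between the genotypes from -0.132 to 0.0549, Pcgf5 from -0.0341 to 0.106, and in Cdk6-/- Pcgf5 from -0.0217 to 0.0198 and Pcgf6 from -0.00459 to 0.175. None of these sign changes was in a called value.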

Other observations

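The genes whose ratios over the 8 single-sample arrays were most like those of Ezh2 were Rsl1d1 (r = 0.977), Mfsd13a (0.971), C1qbp (0.968), Trmt61a (0.967) and Atpif1 (0.96). Rsl1d1 and C1qbp are a nucleolar and a mitochondrial matrix protein. Most like Bmi1 were Vmn2r3 (r = 0.951), Zfp384 (0.946), Mbd5 (0.937), Cdca5 (0.937) and Ap4m1 (0.936). These are the highest values of r over 8 arrays, among the genes with a symbol, that share 1 pool, and are given as a description. Against the pool, where Ezh2 was at 0.31 in Cdk6-/- and 0.44 in Cdk6-K43M, Rsl1d1 was at -0.03 in Cdk6-/- and 0.14 in Cdk6-K43M, and Mfsd13a at 0.30 and 0.42. Among the members themselves the ratios of Suz12 and Bmi1 had r = 0.836, those of Ezh1 and Eed r = -0.808 and those of Ezh2 and Ezh1 r = -0.698 over the same arrays.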
